A study of Mus musculus with 37 samples.

Results

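Alveolar type 1 (AT1) cells were followed through 10 of their marker genes: Ager, Hopx, Pdpn, Aqp5, Rtkn2, Emp2, Clic5, Akap5, Cldn18 and Lmo7. The genes were chosen by symbol, as a list of known markers, with earlier results of these data known. All 10 were found among the 24421 symbols of the count table. The study sequenced RNA of whole lung from C57BL/6 mice that had been irradiated or mock irradiated, some of them given nicotinamide riboside (NR, a precursor of NAD). It holds 37 libraries, each from an animal with its own ear tag.

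The mock group held 7 mice (5 males and 2 females) at 0 Gy on plain water. The mock + NR group held 5 unirradiated mice (4 males and 1 female). Silicon mice received 0.75 Gy of silicon ions at 300 MeV per nucleon, with 7 mice (3 males and 4 females) on plain water and 6 (4 males and 2 females) in the silicon + NR group. The GCR group (7 mice, 3 males and 4 females) received 0.75 Gy of a simplified 5-ion simulation of galactic cosmic rays, made of hydrogen, helium, oxygen, silicon and iron ions. The gamma group (5 mice, 3 males and 2 females) received 0.75 Gy of gamma rays from a cesium source. NR was given in drinking water at 12 mM without a break, from before the exposure, and it was not combined with GCR or gamma. Neither the age of the mice nor the time from exposure to dissection is stated in the labels.

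AT1 cells are very flat epithelial cells that cover most of the gas-exchange surface of the lung and share a basement membrane with the capillary endothelium. They arise in development from shared alveolar progenitors and, after injury, from alveolar type 2 (AT2) cells, the cuboidal cells that make surfactant. Transcription factors of the NKX2-1 and YAP/TAZ-TEAD systems are known to maintain AT1 identity.

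Library totals ran from 9485197 to 66381526 counts, with a median of 28476462. The lowest count of any AT1 marker in any library was 259 (Rtkn2), so counting error was small beside the spread between mice. Some libraries carried RNA of other tissues. Of the 37, 13 held over 1000 CPM (counts scaled to a common library total) of Acta1, the actin of skeletal muscle: 4 of mock, 2 of mock + NR, 5 of silicon, 2 of silicon + NR and none of GCR or gamma. Over 100000 CPM of the ribosomal precursor Rn45s stood in 4 libraries (3 of GCR and 1 of mock), over 100 CPM of the lymphoid chemokine Ccl19 in 3 (2 of silicon and 1 of mock + NR), and over 10000 CPM of the atrial gene Nppa in 2 of gamma. One library went against its label: gamma replicate 5, labelled female, held 87.6 CPM of the Y-linked gene Ddx3y and 3.73 CPM of Xist.

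Where each gene lies is given on GRCm38 (mm10). Ager and Clic5 are on chromosome 17 (chr17:34597862-34600936 and chr17:44188584-44280172, plus strand). Aqp5 (chr15:99590782-99594829), Rtkn2 (chr10:67979570-68059740), Akap5 (chr12:76324891-76334153) and Lmo7 (chr14:101729957-101934710) are on the plus strand, and Hopx (chr5:77086988-77115121), Pdpn (chr4:143267431-143299564), Emp2 (chr16:10281749-10313968) and Cldn18 (chr9:99689461-99717267) on the minus strand. Antisense genes overlap Hopx, Cldn18 and Rtkn2, and since the library kit does not mark strand, their reads cannot be told apart from those of the 3 genes.

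Ager and Cldn18 were the pair of markers whose levels followed each other most closely, so the 250 bases upstream of their RefSeq starts are shown, 5′ to 3′ on the strand of the gene, from GRCm38.p6. Capitals mark a match to CAAGTG, the core of the NKX2-1 motif. The Ager sequence is chr17:34597600-34597849 on the plus strand, and the sequences of the 2 Cldn18 starts are chr9:99717268-99717517 and chr9:99710064-99710313 on the minus strand.
Ager: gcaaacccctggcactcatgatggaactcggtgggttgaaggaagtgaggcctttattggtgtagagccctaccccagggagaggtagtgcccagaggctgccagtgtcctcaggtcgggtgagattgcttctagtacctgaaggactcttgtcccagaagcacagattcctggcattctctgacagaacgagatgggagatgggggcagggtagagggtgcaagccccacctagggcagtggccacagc
Cldn18, outer start: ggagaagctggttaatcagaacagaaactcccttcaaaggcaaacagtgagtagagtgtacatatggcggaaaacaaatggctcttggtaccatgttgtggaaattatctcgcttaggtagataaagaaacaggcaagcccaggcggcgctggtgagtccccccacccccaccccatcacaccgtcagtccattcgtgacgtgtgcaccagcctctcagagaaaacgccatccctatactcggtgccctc
Cldn18, inner start: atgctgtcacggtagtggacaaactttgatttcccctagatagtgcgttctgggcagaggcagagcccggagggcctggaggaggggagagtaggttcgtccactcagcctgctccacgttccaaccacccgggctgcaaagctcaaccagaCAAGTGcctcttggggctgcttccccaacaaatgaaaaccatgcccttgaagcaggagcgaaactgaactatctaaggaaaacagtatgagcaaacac
Such windows were at hand for 9 of the 10 genes, 12 windows in all, and both strands were searched. CAAGTG was in 1 of the 12, at 98 bases upstream of the inner Cldn18 start, against 11.6% of all 32817 windows. The window of the outer Cldn18 start held no match. Counts per gene do not tell the starts apart, and which of them these lungs used was not tested. GGAATG, the core of the TEAD motif, was in 0 of the 12 and in 12.6% of all windows. The AP-1 motif, TGANTCA, was in 0 of the 12 and in 6.75% of all. That says only that these letters are not in these stretches.

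The 10 markers differed in level and in how far the mice spread. Per kb of exon, mean levels over the 37 libraries were highest for Hopx (513 CPM per kb) and Ager (355 CPM per kb), and lowest for Rtkn2 (15.2 CPM per kb), Akap5 (15.3 CPM per kb) and Lmo7 (16.6 CPM per kb). Neither Rtkn2 and Akap5 nor Akap5 and Lmo7, neighbours in that order, differed by more than their spread. Ager varied most: its highest library held 64.7 times the CPM of the lowest, and its spread on the log2 scale lay at the 94.6th percentile of all 16977 genes tested. Cldn18 spanned 28.5-fold and Rtkn2 22.2-fold, whereas Aqp5 spanned 5.98-fold and Lmo7 3.96-fold. The 6 groups accounted for 25.2% of the variance of log2 CPM for Ager and from 11.4% (Aqp5) to 47.3% (Pdpn) for the others, beside a median of 25.2% over all genes. The mean level was lowest in mock + NR for all 10 markers, and highest in mock for 5, in GCR for 4 and in gamma for 1 (Ager).

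**Figure D1:**
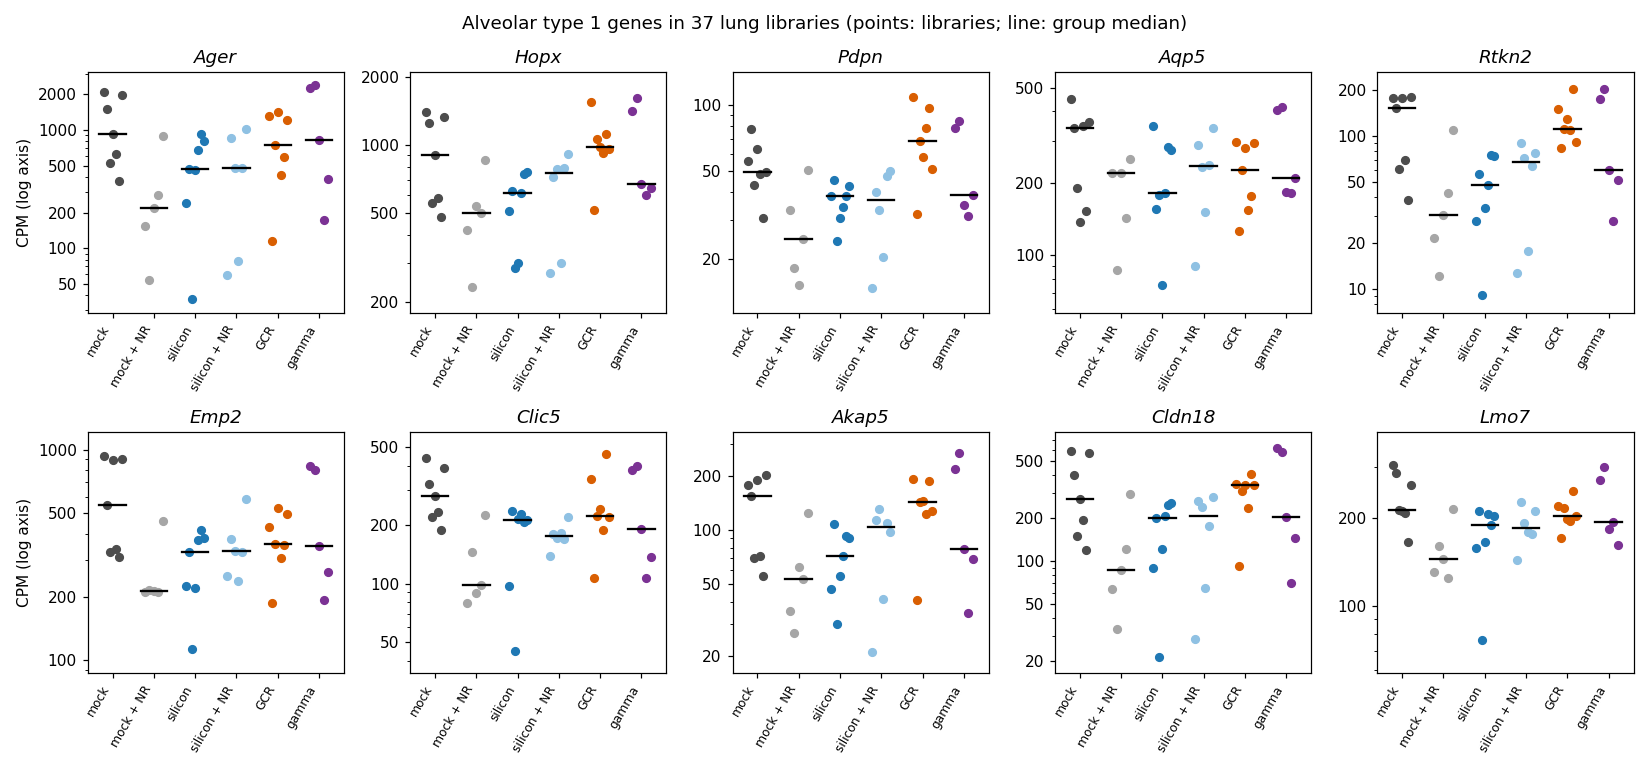
CPM of each AT1 marker (log axis) in each library, by group; points are mice and the line is the group median. Points of the groups overlap for every gene, and Ager spans 36.9 to 2391 CPM.

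The surface proteins come first. Ager encodes the receptor for advanced glycation end products, which is held on the basal membrane of AT1 cells. Its level ran from 367 to 2117 CPM in mock (median 934), from 36.9 to 928 in silicon (median 469), from 58.6 to 1013 in silicon + NR (median 481) and from 115 to 1429 in GCR (median 752). The 5 mock + NR mice held 53.4, 155, 220.3, 279 and 896 CPM of Ager, and the 5 gamma mice 172, 387, 818, 2291 and 2391 CPM. No silicon or mock + NR library exceeded the mock median, yet the groups overlapped, and gamma held both the highest libraries of the series and a library below every mock mouse. Pdpn encodes podoplanin, a mucin-like glycoprotein of the apical surface that lymphatic endothelium and mesothelium also carry. Pdpn ran from 30.7 to 77.99 CPM in mock (median 49.4), 24.2 to 45.4 in silicon (median 38.6), 14.8 to 50.2 in silicon + NR (median 36.8) and 31.8 to 109 in GCR (median 68.3). Mock + NR mice held 15.1, 18.2, 24.7, 33.2 and 50.8 CPM of Pdpn, and gamma mice 31.2, 34.96, 38.8, 78.7 and 84.5 CPM. In GCR, 6 of 7 mice exceeded the mock median of Pdpn and 3 exceeded every mock mouse.

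Emp2, a tetraspan protein of the AT1 membrane, ran from 309 to 934 CPM in mock (median 549), 113 to 416 in silicon (median 327), 238 to 584 in silicon + NR (median 329) and 187 to 529 in GCR (median 356). The mock + NR mice held 211, 211, 213, 216 and 457 CPM, so 4 of the 5 lay together below the lowest mock mouse. Gamma mice held 193, 262, 349, 803 and 836 CPM of Emp2. Aqp5 is the water channel of the apical AT1 membrane, also made by airway glands. It was flatter, with medians of 342 CPM in mock, 220.01 in mock + NR, 182 in silicon, 236 in silicon + NR, 227 in GCR and 210.2 in gamma, and a range from 75.1 to 449 CPM over all mice. A silicon mouse and 2 gamma mice exceeded the mock median of Aqp5, and all groups overlapped.

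Of the junction and cytoskeleton genes, Cldn18 encodes a claudin that seals the tight junctions of the alveolar epithelium. Cldn18 ran from 119 to 588 CPM in mock (median 272), 21.5 to 255 in silicon (median 199), 28.6 to 278 in silicon + NR (median 206) and 92.2 to 407 in GCR (median 337). Mock + NR mice held 33.3, 63.5, 85.9, 120.3 and 292 CPM, and gamma mice 70.2, 144, 202, 576 and 612 CPM. All silicon mice stayed below the mock median and 1 mock + NR mouse passed it. Clic5, a chloride intracellular channel family protein tied to the actin cortex, ran from 188 to 439 CPM in mock (median 282), 45.3 to 235 in silicon (median 212), 138 to 219.7 in silicon + NR (median 175) and 107 to 458 in GCR (median 221). Its levels in mock + NR were 79.3, 89.5, 98.0, 145 and 225 CPM, with 4 of 5 below every mock mouse, and in gamma they were 107, 136, 189.6, 383 and 397 CPM. Lmo7, a LIM-domain protein of adherens junctions, was the steadiest marker, at 166 to 303 CPM in mock, 76.5 to 211 in silicon and 124 to 215 in mock + NR. The other groups lay within 143 to 299.6 CPM of Lmo7.

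Rtkn2 ran from 38.4 to 180.5 CPM in mock (median 152), 9.12 to 74.8 in silicon (median 47.7), 12.7 to 89.9 in silicon + NR (median 67.8) and 83.2 to 202 in GCR (median 111). Mock + NR mice held 12.2, 21.7, 30.5, 42.3 and 109.8 CPM of Rtkn2, and gamma mice 27.9, 52.0, 59.8, 174.5 and 202 CPM. The mock values of Rtkn2 left a gap between 69.4 and 152 CPM, and no silicon mouse exceeded 74.8 CPM. Akap5, which anchors protein kinase A and other signalling enzymes at the membrane, ran from 55.7 to 201 CPM in mock (median 155), 30.2 to 108 in silicon (median 71.7) and 41.0 to 192 in GCR (median 143). Its medians were 53.7 CPM in mock + NR, 104 in silicon + NR and 78.2 in gamma. Hopx, a small homeodomain protein that does not bind DNA itself, ran from 479 to 1409 CPM in mock (median 904), 283 to 761 in silicon (median 611) and 516 to 1552 in GCR (median 979.7). Its medians were 497 CPM in mock + NR, 754 in silicon + NR and 671 in gamma, and 6 of 7 GCR mice exceeded the mock median.

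**Figure D2:**
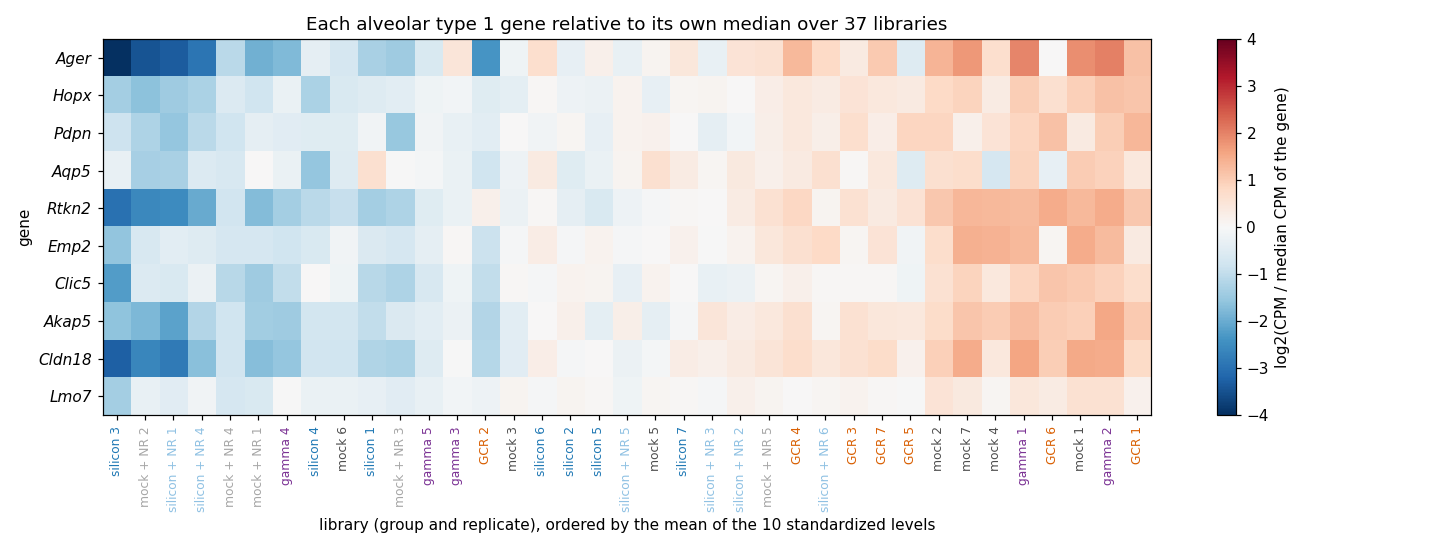
Each marker (rows) in each library (columns) as log2 of its CPM over its own median, with libraries ordered by the mean of the standardized levels. Blue at the left marks silicon replicate 3 as the lowest library, and the columns change colour together over most rows, least so for Aqp5.

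Whole libraries were high or low in most markers at once. The summed CPM of the 10 genes ran from 819 to 7064. Silicon replicate 3 was lowest in its group for 9 of the 10 genes, at a sum of 819 CPM, and it was one of the lymphoid-rich libraries. GCR replicate 2, a high-Rn45s library, was lowest in its group for all 10. Mock + NR replicate 5, the only female of that group and a muscle-rich library, was highest in it for all 10, with a sum of 3484 CPM. Mock replicate 6, a muscle-rich library, was lowest in its group for 9 of the 10.

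The first comparison asked whether silicon ions alone moved AT1 markers. All 10 log2 fold changes were negative in silicon against mock, yet none passed (0 of 10 at an adjusted p under 0.05 in edgeR's quasi-likelihood test, with Benjamini-Hochberg adjustment over 16977 genes). The background was the same, with 0% of all genes called. The values were -1.51 for Rtkn2 (SE 0.51, adjusted p = 0.156), -1.36 for Ager (SE 0.67, adjusted p = 0.39), -1.11 for Emp2 (SE 0.33, adjusted p = 0.116), -1.11 for Cldn18 (SE 0.52) and -0.91 for Akap5 (SE 0.43). Hopx stood at -0.76, Clic5 at -0.75, Pdpn at -0.53, Lmo7 at -0.40 and Aqp5 at -0.33. The median of the 10 was -0.83, beside 0.07 over all genes. At an unadjusted p under 0.05 the count was 7 of 10 (all but Ager, Pdpn and Aqp5), where 12.9% of all genes stood. In whole tissue, fewer AT1 cells and less of these transcripts per cell cannot be told apart.

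The values differed with the libraries that entered the fit. The 12 skeletal muscle genes, all measured and none at 0 throughout, summed to 45.4 to 48587 CPM in mock and to 312 to 88626 CPM in silicon. Without the 13 muscle-rich libraries, a choice made after the data were seen, mock kept replicates 1, 2 and 7, and silicon kept replicates 1 and 3. The count in that fit was 8 of 10 (all but Pdpn and Aqp5), where 4.23% of all genes were called, and the median log2 fold change was -2.29. Ager then stood at -3.85 (adjusted p = 0.0423) and Rtkn2 at -3.30 (adjusted p = 0.0128) in edgeR. Silicon replicate 3 was the lowest library of the series for most markers (Ager at 36.9 CPM, against 240.1 CPM in replicate 1) and lymphoid-rich. Without the lymphoid-rich libraries as well, silicon kept replicate 1 alone, assumed to vary like the other groups, and 0 of 10 passed (0% of all genes), with a median of -1.79 and Ager at -2.96 (adjusted p = 0.49). None of the 8 calls held in that fit, which has fewer samples. Among only the muscle-rich libraries, 4 of mock and 5 of silicon, 0 of 10 passed, beside 0 of 17033 genes, and the median was -0.28. DESeq2 on all libraries called Rtkn2 (-1.52, adjusted p = 0.0492) and Emp2 (-1.11, adjusted p = 0.0314), with 2.51% of all genes called. Without mock replicate 6, edgeR called Emp2 alone (-1.27, adjusted p = 0.0411), with 1.81% of all genes called.

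**Figure D3:**
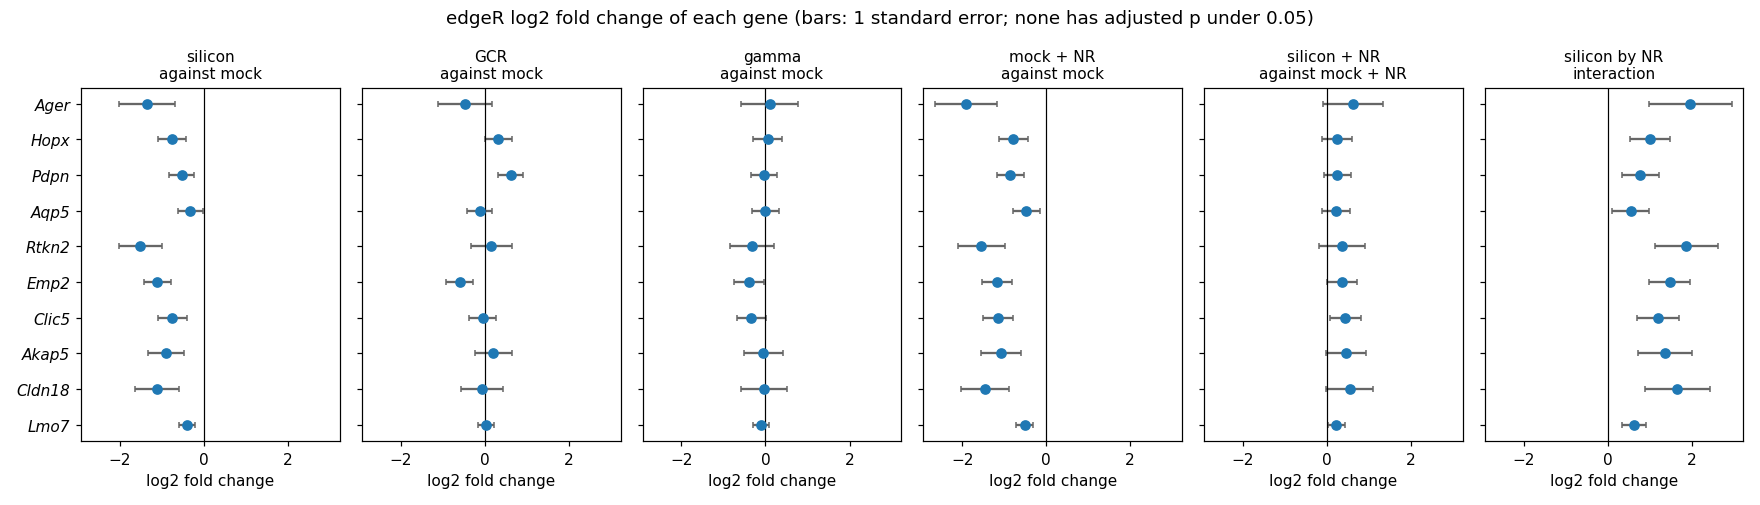
edgeR log2 fold change of each marker in 6 comparisons, with bars of 1 standard error; 0 marks no difference. All 10 values lie left of 0 in silicon against mock and in mock + NR against mock, which share the mock mice, and none passed the adjusted p of 0.05.

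GCR against mock split the markers evenly, with 5 of 10 values negative. In that comparison 0 of 10 markers passed in edgeR, where 16.6% of all genes did. Pdpn stood at 0.62 (SE 0.29, adjusted p = 0.131), Emp2 at -0.60 (SE 0.32, adjusted p = 0.185), Ager at -0.47 (SE 0.64), Hopx at 0.32 (SE 0.32), Akap5 at 0.21, Rtkn2 at 0.16, Aqp5 at -0.12, Cldn18 at -0.07, Clic5 at -0.05 and Lmo7 at 0.03. The median of the markers was -0.01, beside -0.06 over all genes. Pdpn was the 1 marker with an unadjusted p under 0.05, where 34.4% of all genes stood. Rn45s differed between these groups' libraries, with 3 GCR libraries and 1 mock library over 100000 CPM. Without those 4 the median of the markers was 0.05 and 0 of 10 passed, beside 0 of 17084 genes. Without the muscle-rich libraries, 4 of them in mock and none in GCR, the median was -0.18. In that fit 0 of 10 passed, beside 0 of 17142 genes. The calls of the full fit were thus absent from both smaller fits. These kept 4 GCR and 6 mock mice, and 7 GCR and 3 mock mice. Whether the libraries left out or the smaller number of mice made the difference was not tested.

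Gamma rays against mock gave values of both signs, with 8 of 10 negative. None of the 10 passed in edgeR (0.0295% of all genes did), 0 had an unadjusted p under 0.05 (10% of all genes did), and the values lay between -0.39 (Emp2, SE 0.35) and 0.10 (Ager, SE 0.68), with a median of -0.04 beside -0.01 over all genes. Gamma replicate 2 was highest in its group for 8 of the 10 genes and replicate 1 for 2, while replicates 3 and 4 were rich in heart muscle RNA. The 8 heart genes summed to 675 to 53938 CPM in gamma and to 629 to 12063 CPM in mock. Without replicates 3 and 4 the median of the markers was 0.27, and without replicate 5, whose sex label the data contradict, it was 0.03. Without the muscle-rich libraries, 4 of them in mock and none in gamma, all 10 values were negative, from -0.75 (Rtkn2) to -0.12 (Pdpn), and the median was -0.54. No marker passed in any of the 3 fits. Of all genes, 4 of 17264 passed without replicates 3 and 4, and 0 of 17142 without the muscle-rich libraries. Leaving out each library in turn, replicate 5 among them, gave 1 to 18 genes called.

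NR without radiation was asked by mock + NR against mock, which shares its 7 mock mice with the comparisons above. All 10 log2 fold changes were negative and 0 of 10 passed in edgeR, beside 0% of all genes. Ager stood at -1.91 (SE 0.73, adjusted p = 0.165), Rtkn2 at -1.54 (SE 0.55, adjusted p = 0.141), Cldn18 at -1.46 (SE 0.57, adjusted p = 0.171), Emp2 at -1.18 (SE 0.36, adjusted p = 0.109) and Clic5 at -1.15 (SE 0.37, adjusted p = 0.112). The remaining values were -1.07 for Akap5, -0.86 for Pdpn, -0.78 for Hopx, -0.51 for Lmo7 and -0.47 for Aqp5. The median was -1.11, beside -0.01 over all genes, and 9 of 10 (all but Aqp5) had an unadjusted p under 0.05, where 16.9% of all genes stood. DESeq2 called Emp2 (-1.17, adjusted p = 0.0355) and Clic5 (-1.14, adjusted p = 0.0482), with 3.22% of all genes called. Without the muscle-rich libraries, 3 mice remained in each group and edgeR called Rtkn2, Emp2, Clic5 and Cldn18 (4 of 10, beside 2.48% of all genes), with a median of -1.79. Without the lymphoid-rich replicate 4 as well, with 2 mock + NR mice left, edgeR called Rtkn2 alone (1 of 10, beside 1.6% of all genes), with a median of -1.67. Among only the muscle-rich libraries the median was -0.50 and 0 of 10 passed, beside 0 of 17033 genes.

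Silicon ions in mice on NR gave values whose size and sign rested on the libraries in the fit. Silicon + NR against mock + NR gave 10 positive values between 0.21 (Aqp5, SE 0.33) and 0.61 (Ager, SE 0.71), 0 of 10 passed in edgeR beside 0% of all genes, and the median was 0.36 beside -0.01 over all genes. Silicon + NR against silicon gave values between -0.08 (Pdpn, SE 0.30) and 0.33 (Rtkn2, SE 0.50), 0 of 10 passed beside 0% of all genes, and the median was 0.16 beside -0.05. At an unadjusted p under 0.05 the count was 0 of 10 in both, where 2.16% of all genes stood in the first and 12.8% in the second. Without the muscle-rich libraries, silicon + NR against mock + NR stood at 1.83 for Ager, 1.46 for Cldn18, 1.35 for Rtkn2, 1.21 for Akap5 and 1.04 for Clic5 (median of the 10 0.96), and silicon + NR against silicon had a median of 1.41. Among only the muscle-rich libraries, with 2 silicon + NR and 2 mock + NR mice, Ager stood at -1.88 in the first comparison, and the medians were -0.80 and -0.998. No marker passed in these edgeR fits. Without the muscle-rich libraries, 0 of 17142 genes passed in the first comparison and 179 in the second. Among only the muscle-rich libraries, 0 of 17033 genes passed in either. DESeq2 called no marker in either comparison, nor in GCR, gamma, the interaction or between the sexes. Of 16940 genes, DESeq2 called 1 in the first comparison and 353 in the second. It called 3834 in GCR, 259 in gamma, 318 in the interaction and 12 between the sexes.

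Whether the silicon effect differed with NR was tested by the interaction term. All 10 values were positive and 0 of 10 passed in edgeR, beside 0% of all genes. Emp2 stood at 1.48 (SE 0.48, adjusted p = 0.165), Rtkn2 at 1.87 (SE 0.75, adjusted p = 0.302), Ager at 1.97 (SE 0.98, adjusted p = 0.515) and Cldn18 at 1.65 (SE 0.77, adjusted p = 0.452), and Aqp5 had the smallest value (0.55, SE 0.44). The median was 1.28, beside -0.08 over all genes, and 7 of 10 (all but Ager, Pdpn and Aqp5) had an unadjusted p under 0.05, where 9.95% of all genes stood. The term holds the mock mice of both comparisons above, so its sign is not separate evidence. Without the muscle-rich libraries 8 of 10 passed (all but Pdpn and Aqp5), where 7.79% of all genes were called, and the median was 3.31. Without the lymphoid-rich libraries as well, 0 of 10 passed, beside 0.103% of all genes, and the median was 2.72. Among only the muscle-rich libraries 0 of 10 passed, beside 0 of 17033 genes, and the median was -0.52.

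No marker was called between the sexes. Female against male gave values between -0.11 (Aqp5, SE 0.19) and 0.47 (Ager, SE 0.43). In edgeR 0 of 10 passed, beside 0.0589% of all genes, and 0 of 10 had an unadjusted p under 0.05, beside 3.15%. Gamma replicate 5 was counted as female, as labelled, though the data contradict that label. Without the muscle-rich libraries the values lay between -0.54 and -0.21, with a median of -0.30, and 0 of 10 passed, beside 2 of 17142 genes.

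The markers varied together between mice. Over 37 libraries the 45 pairs had a median Pearson r of 0.79 and a median Spearman rho of 0.79, and 44 of the 45 had an adjusted p under 0.05 (two-sided permutation test, 100000 resamples, Benjamini-Hochberg over the pairs). Ager and Cldn18 had the highest r, at 0.96 (rho 0.91, p = 1e-05, the smallest the permutations can give, adjusted p = 1.29e-05). Aqp5 and Clic5 had the lowest, at 0.32 (rho 0.31, permutation p = 0.0505, adjusted p = 0.0505). Without the 2 libraries farthest from the median these pairs stood at 0.94 and 0.40, and after centring each gene on its group means at 0.96 and 0.19. The median over pairs was 0.77 without the farthest libraries and 0.73 after centring. It was 0.85 within mock, 0.90 within silicon, 0.79 within silicon + NR and 0.70 within GCR. Without the muscle-rich libraries it was 0.86, and among only those libraries 0.79. Each gene's median r to the others was highest for Rtkn2 (0.86), Ager (0.85), Hopx (0.85) and Cldn18 (0.85), and lowest for Pdpn (0.71) and Aqp5 (0.57). The values share library totals and the normalization. The share of pairs of other genes that would pass was not tested. Genes outside the 10 with an r above 0.90 numbered 114 for Rtkn2, 99 for Cldn18, 72 for Hopx and 63 for Ager. They numbered 39 for Akap5, 10 for Clic5, 9 for Emp2, 5 for Pdpn, 1 for Aqp5 and 0 for Lmo7.

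**Figure D4:**
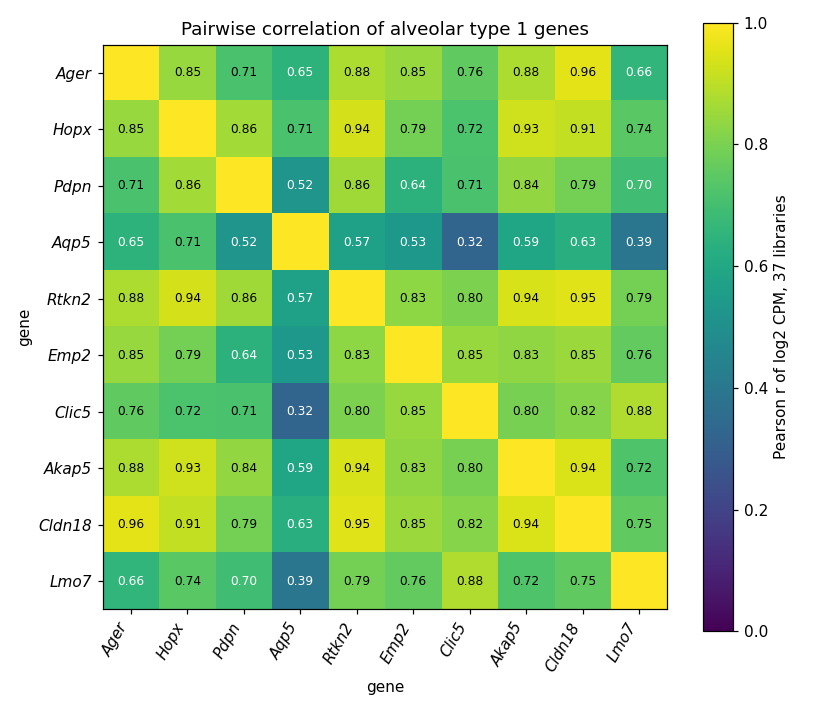
Pearson r of log2 CPM over 37 libraries for each pair of markers, with the value in each cell. Ager with Cldn18 is highest at 0.96 and Aqp5 with Clic5 lowest at 0.32.

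The genes most like the mean of the 10 standardized markers over 37 libraries were Arhgef26 (r = 0.97), Hs2st1 (0.97), Bdnf (0.96), Ism1 (0.95), Dpysl2 (0.95), Bmpr2 (0.95), Adgrf5 (0.95) and Prex2 (0.95). These correlations are descriptions of the same libraries. The gene nearest to single markers was Col4a3, a basement membrane collagen chain, for Ager (0.98) and Cldn18 (0.97), and Arhgef26 for Hopx (0.97) and Rtkn2 (0.97). For Aqp5 it was Krt7 (0.93), a keratin of simple epithelium, for Emp2 it was Tmem100 (0.92), a gene of lung endothelium, and for Pdpn it was Rasgrf2 (0.92). Clic5 was nearest to Scube2 (0.95), Akap5 to Pde8b (0.95) and Lmo7 to Sorbs3 (0.89).

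Other AT1 genes followed the markers. A list of 26 had a mean standardized level that tracked that of the markers at r = 0.95. The list was chosen with earlier results of these data known, so this r is a description and not separate evidence. It holds Bdnf, Col4a3 and Krt7, which are named above for their high r. None of the 26 passed in any of the 8 comparisons in edgeR, 25 of 26 were negative in silicon against mock (median -0.77) and 22 of 26 in mock + NR against mock (median -0.85), and all 26 were positive in the interaction (median 1.01). Timp3, an inhibitor of matrix metalloproteinases, had the smallest p of the list in silicon against mock (-0.98, SE 0.28, adjusted p = 0.107), and Tspan8, a tetraspanin, in mock + NR against mock (-1.22, SE 0.31, adjusted p = 0.102). In the fit without the muscle-rich libraries 9 of the 26 fell in silicon against mock (4.23% of all genes called). In it 8 fell in mock + NR against mock (2.48%) and 14 were higher in the interaction (7.79%). That fit kept 2 silicon mice, among them the lymphoid-rich replicate 3, the lowest library of the series for most markers. The list was not tested without both the muscle-rich and the lymphoid-rich libraries.

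Regulators of AT1 fate were called, with all libraries in the fit, only in GCR against mock, where nearly all calls of the whole table also lay. Of 22, 4 rose and 1 fell there in edgeR, beside 16.6% of all genes called. None passed in the other comparisons, where at most 0.0589% of all genes did. The difference from other comparisons was not tested. Foxa2, a forkhead factor of lung endoderm, stood at 1.36 (SE 0.32, adjusted p = 0.0102), Lats1, a Hippo kinase, at 0.45 (SE 0.12, adjusted p = 0.0176) and Nkx2-1, the lung lineage factor, at 1.15 (SE 0.32, adjusted p = 0.019). Tead3 rose (0.80) and Tead4 fell (-1.59), both partners of YAP and TAZ. Without the 4 high-Rn45s libraries none of the 22 passed, beside 0 of 17084 genes, and Foxa2 stood at 0.70 (adjusted p = 0.328 in edgeR). Leaving out the muscle-rich libraries, none of the 22 passed in GCR against mock, beside 0 of 17142 genes. Foxa2 then stood at 0.94 (adjusted p = 0.219 in edgeR). In the same fit 1 regulator fell in silicon against mock (4.23% of all genes called). There 1 fell in mock + NR against mock (2.48%) and 2 were higher in the interaction (7.79%). That fit kept 2 silicon mice, among them the lymphoid-rich replicate 3. The regulators were not tested without both the muscle-rich and the lymphoid-rich libraries. Genes of other cell types differed between the same groups of mice. In GCR against mock 8 of 8 ciliated genes were positive (median 0.90, 3 called), 9 of 9 basal and squamous genes fell (median -6.79) and 10 of 12 skeletal muscle genes fell. Foxa2 and Nkx2-1 are also made by airway epithelium, and the part of these cells in the regulators' values was not tested. Bmp4, a ligand, had the smallest p among the regulators in silicon against mock, at -1.25 (SE 0.35, adjusted p = 0.102).

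AT2 genes and alveolar endothelium, the neighbours of AT1 cells, moved with the markers. Over 37 libraries the mean standardized level of 20 endothelial genes tracked that of the AT1 markers at r = 0.92, and that of 20 AT2 genes at r = 0.87, with Sftpc, the surfactant protein of AT2 cells, at 0.88. In silicon against mock 20 of 20 endothelial genes were negative (median -1.32) and 19 of 20 AT2 genes (median -0.64), with none passing in edgeR. In mock + NR against mock the medians were -1.52 and -0.995, again with none passing. In silicon against mock 18 of 20 endothelial and 1 of 20 AT2 genes had an unadjusted p under 0.05 (12.9% of all genes did). In mock + NR against mock the counts were 18 and 10 (16.9% of all genes). Genes of other cell types differed in the same comparisons. In mock + NR against mock 8 of 8 ciliated genes were positive (median 1.07, 8 at an unadjusted p under 0.05, beside 16.9% of all genes). There 7 of 7 club and secretory genes were positive (median 0.79) and 7 of 7 mesothelial genes were negative (median -1.35). In silicon against mock 8 of 8 lymphoid genes were positive (median 2.21, 8 at an unadjusted p under 0.05, beside 12.9% of all genes). Silicon held 2 lymphoid-rich libraries and mock held 0. None of these genes passed, and their part in the AT1 values was not tested. With all libraries in the fit, the only AT2 gene that passed in any of the 8 comparisons was Sftpb in GCR against mock (1.51, SE 0.43, adjusted p = 0.0215). It did not pass without the high-Rn45s libraries (1.04, adjusted p = 0.289), where 0 of 17084 genes did. With the muscle-rich libraries left out, 5 of 20 AT2 genes fell in silicon against mock (median -1.84, beside 4.23% of all genes called). In that fit 5 fell in mock + NR against mock (median -1.50, beside 2.48%) and 7 were higher in the interaction (median 2.24, beside 7.79%). Silicon then kept 2 mice, among them the lymphoid-rich replicate 3. The AT2 list was not tested without both the muscle-rich and the lymphoid-rich libraries. Genes of the intermediate cells that appear between AT2 and AT1 after injury did not follow the markers (r = 0.08). Of 15, Areg, an EGF receptor ligand (2.15, SE 0.41, adjusted p = 0.00493), and Nupr1, a stress-induced nuclear protein (0.90, SE 0.30, adjusted p = 0.0357), rose in GCR against mock, 2 of 15 where 16.6% of all genes were called. Neither passed in edgeR without the high-Rn45s libraries, where 0 of 17084 genes did and 4 GCR and 6 mock mice remained. Areg then stood at 2.27 (adjusted p = 0.151) and Nupr1 at 0.95 (adjusted p = 0.26).

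Lists of other cell types and tissues had mostly negative correlations with the markers across libraries. The mean level of the markers had an r of -0.41 with skeletal muscle genes, -0.42 with heart genes, -0.42 with basal and squamous epithelium, -0.28 with club and secretory genes and -0.15 with ciliated genes. The r with lymphoid genes was -0.25, and it turned to 0.13 without the 2 farthest libraries. Basal and squamous genes (9 of 9 measured) summed to 171 to 2548 CPM in silicon, 4.37 to 2044 in mock and 3.73 to 99.7 in GCR. Lymphoid genes summed to 52.6 to 2071 CPM in silicon and 53.6 to 201 in mock, with Ccl21a listed at 0 in every library. Mesothelial genes, 7 of 8 measured, tracked the markers at r = 0.54 and lymphatic genes at 0.60. The part of these tissues in the differences between groups was not tested beyond the fits given above.

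**Figure D5:**
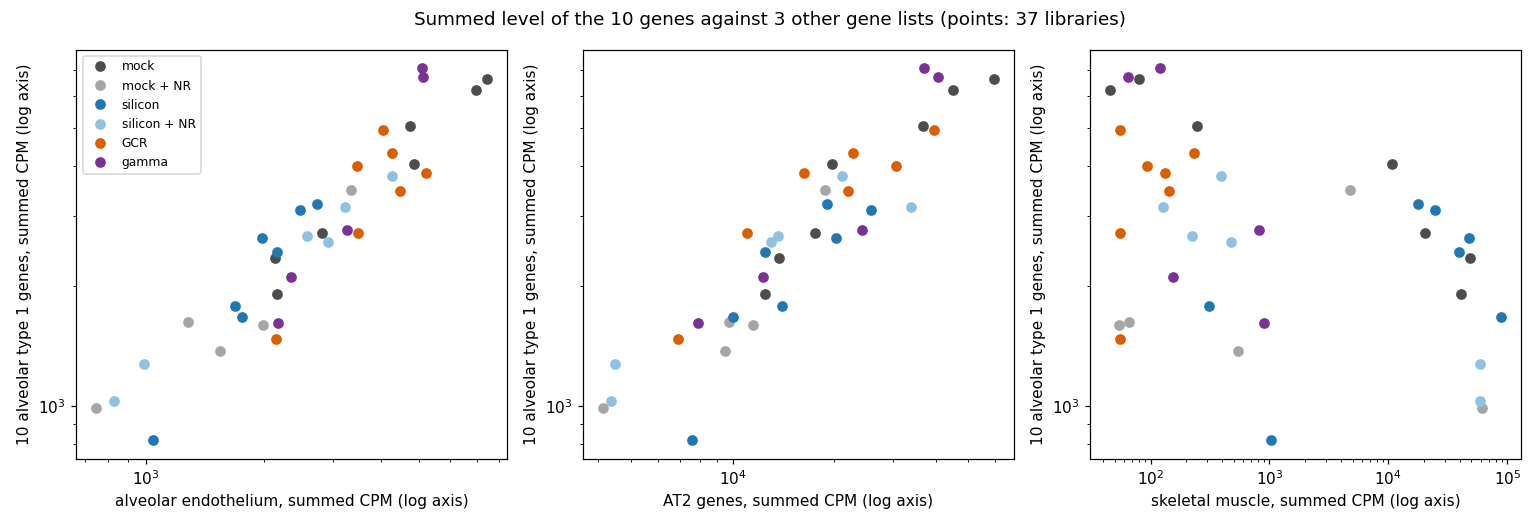
Summed CPM of the 10 AT1 markers against summed CPM of alveolar endothelium, AT2 genes and skeletal muscle (log axes), with 1 point per library coloured by group. The markers rise with the first 2 lists, and the lowest silicon + NR library (1028 CPM) lies among those with high muscle sums.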

How the data were processed

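RNA of 37 mouse lungs was extracted with Trizol, turned into cDNA with SMART-seq v4 and made into libraries with Nextera XT, per the labels' protocols. Per the submitters' processing notes, STAR 2.5.2, HTSeq 0.13.5, Trimmomatic 0.36, FastQC 0.11.4 and MultiQC 1.12 served with mm10. The annotation, strand setting and treatment of multimapping reads were not given in the sources used here. Whole-number counts per gene symbol, not normalized, were deposited by the authors. SMART-seq v4 adds no unique molecular identifiers, so counts are not independent molecules.

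CPM were computed from the counts and library totals. Groups and sex came from the labels, replicate numbers follow accession order and only name a mouse, and no 2 libraries of a group agreed within sampling noise (lowest chi-square 19.2 per degree of freedom). edgeR 4.0.16 in R 4.3.3 fitted the 6 groups and sex over all libraries (TMM, filterByExpr), leaving 16977 genes, with all 10 markers among them, and a threshold of 0.05 on the adjusted p. The log2 fold changes are edgeR's. Correlations used log2 CPM with a prior count of 2. The code was tested on simulated data. Exon lengths and coordinates came from GENCODE on GRCm38, and Ccn1 and Ccn2 were read as Cyr61 and Ctgf. DESeq2 1.42.0, other size factors, filters, models and library sets were alternatives, and the fits by library sets (over 1000 CPM of Acta1, 100000 of Rn45s, 100 of Ccl19 or 10000 of Nppa, and Acta1 with Ccl19 together) were chosen after the data were seen. The markers and all lists were chosen with earlier results of these data known. The text names all 10 markers in each comparison, at most 3 genes of smallest p per other list and the genes of highest r, and Tead3 and Tead4 were named after their values were seen. Each mouse gave 1 library, so p-values measure the spread between mice. Where a label's sex disagreed with the data, the label was kept in the model.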

Additional observations from a re-analysis of the deposited data

Results flagged for a closer look

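In a test of the extreme mouse of each group for each marker (60 groups tested, Dixon's 95% critical value, which chance passes in about 1 of 20), 3 values stood apart. Mock + NR replicate 5, the only female of its group and a muscle-rich library (2195 CPM of Acta1), held 896 CPM of Ager against 279 CPM in the next highest mouse. The same mouse held 457 CPM of Emp2 against 216 CPM in the next. Silicon replicate 3, a lymphoid-rich library, held 76.5 CPM of Lmo7 against 158 CPM in the next lowest mouse. The part of sex or of other tissue in these values was not tested.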

How the results depend on the processing

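No paired analysis was possible because replicate numbers follow accession order and pair no mice across groups. Over 48 alternative settings, 3800 log2 fold changes of single markers were recomputed, of which 3579 kept their direction and their side of the threshold. Another 165 changed sign by less than 2 standard errors, with no call in either fit. Under an alternative alone 26 passed, and 30 changed sign by at least 2 standard errors with no call in either fit. The standard errors are those of the fit of all libraries. Those of the alternative fits, some with far fewer mice, were not used.

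Of the 30, most came from fits of only the muscle-rich libraries, which hold 4 mock, 2 mock + NR, 5 silicon and 2 silicon + NR mice. There, silicon + NR against mock + NR gave -1.88 for Ager, -0.68 for Hopx, -0.93 for Pdpn, -1.67 for Rtkn2, -0.36 for Emp2, -1.27 for Akap5, -1.33 for Cldn18 and -0.21 for Lmo7. Silicon + NR against silicon gave -2.53 for Ager, -0.86 for Hopx, -1.66 for Rtkn2, -0.43 for Emp2, -1.46 for Akap5, -1.77 for Cldn18 and -0.32 for Lmo7. The interaction gave -1.30 for Ager, -0.41 for Hopx, -0.63 for Pdpn, -0.78 for Rtkn2, -0.091 for Clic5, -0.99 for Akap5, -1.14 for Cldn18 and -0.20 for Lmo7. Without the muscle-rich libraries, silicon + NR against silicon gave 0.58 for Pdpn, and female against male gave -0.54 for Ager, -0.48 for Rtkn2 and -0.42 for Cldn18 (-0.52, -0.46 and -0.40 without the lymphoid-rich libraries as well). The cause was not tested.

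DESeq2 called 2 markers in silicon against mock and 2 in mock + NR against mock, and the fit without the muscle-rich libraries called 8, 4 and, in the interaction, 8. Without the lymphoid-rich libraries as well, the counts were 0, 1 and 0. Leaving out each library in turn gave 0 to 1 markers called in silicon against mock (1 without mock replicate 6) and 0 to 0 in the other comparisons. The marker medians then ran from -1.001 to -0.68 in silicon against mock, -0.16 to 0.11 in GCR, -0.34 to 0.09 in gamma, -1.37 to -0.95 in mock + NR against mock, 0.24 to 0.62 in silicon + NR against mock + NR, -0.01 to 0.30 in silicon + NR against silicon, 1.08 to 1.51 in the interaction and -0.04 to 0.17 between the sexes. Correlated pairs passing numbered 44 to 45 when each library was left out, 43 after centring and 39 among only the muscle-rich libraries. Genes called over the whole table were less stable: in GCR 501 to 4087 when each library was left out, 909 with only the groups compared, 3834 in DESeq2 and 0 without the high-Rn45s or without the muscle-rich libraries. The effect of depth on the markers was not tested.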
